A study of Mus musculus with 20 samples.

Results

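Respiratory complex I (NADH:ubiquinone oxidoreductase) genes were taken by name from a count table of mouse temporomandibular joint tissue. Symbols of nuclear subunits had to be *Ndufa*, *Ndufab*, *Ndufb*, *Ndufc*, *Ndufs* or *Ndufv* followed by digits alone, those of assembly factors *Ndufaf* and a single digit, and those of the mitochondrial genome *mt-Nd* and a number or 4l. Symbols of another form, such as *Ndufa4l2* and *Ndufb1-ps*, were thus left out, and whether they encode subunits was not examined. The rule gave 52 of the 54532 genes in the table, which were 37 nuclear subunits, 8 assembly factors and 7 subunits of the mitochondrial genome. The rule uses names, not measured values, and all 52 passed the filter on low counts.

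RNA of the condylar head of the joint with some of the bone under its cartilage was sequenced from mice with an *Acan-CreERT2* driver and floxed *Loxl2* (*Loxl2* fl/fl). The 8 control libraries came from mice given vehicle and the 12 libraries labelled knockout from mice given tamoxifen, and both groups carried both alleles, held males and females, were 6 months old at the start and were collected 4 months later. The Cre enzyme acts in aggrecan-expressing cells only, so the other cells of the tissue keep *Loxl2*, and the drug and the deletion cannot be told apart in this design. The study asked what loss of *Loxl2*, a collagen and elastin cross-linking enzyme, does to the joint, and it considered mitochondrial function among the outcomes. The background strain was not given in the sources used here, and nothing in the labels says whether libraries shared a litter or day.

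Library totals ran from 11153820 to 27045668 counts, and the lowest count of any complex I gene in any library was 76. *Loxl2* itself went against the label, with 16 to 103 CPM (counts scaled to a common library size; median 70.3) in control and 28.8 to 126 CPM (median 110) in the libraries labelled knockout. The difference was 0.64 ± 0.28 on the log2 scale (SE) with an edgeR adjusted p of 0.101. The counts cover the whole gene, and the deleted exon was not given in the sources used here, so directions below are those of the labels. The cartilage markers *Acan* and *Col2a1* were present but as low as 2.22 and 1.68 CPM in a control library, whereas the 17 genes of the skeletal muscle list summed to 60798 to 207972 CPM in control and 42792 to 108456 CPM in the libraries labelled knockout. Control replicates 6 and 8 stood apart from the other control libraries, with a mean log2 CPM of 2.23 and 0.612 over the chondrocyte list, against 4.75 to 5.66 in the other 6, and of 5.10 and 3.89 over the osteoblast and osteocyte list, against 6.17 to 7.78. Replicate 5 labelled knockout was the lowest of its group for both lists, at 2.61 and 5.24. In bulk RNA of this kind, fewer cells of a type and less RNA per cell cannot be told apart.

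Complex I is the largest enzyme of the mitochondrial respiratory chain and the main entry of electrons from NADH. It is L-shaped. The arm in the matrix holds the N module, where flavin takes electrons from NADH, and the Q module, where a chain of iron-sulfur clusters hands them to ubiquinone. The arm in the inner membrane, with a proximal and a distal part, pumps protons. The catalytic core is conserved from bacteria and is split between genomes, with its matrix subunits encoded in the nucleus and its membrane subunits in mitochondrial DNA. The remaining accessory subunits surround the core, and assembly factors bind intermediates without staying in the finished enzyme. The complex is abundant in oxidative muscle, and osteoclasts, the bone-resorbing cells, are also rich in mitochondria. Chondrocytes of cartilage lean more on glycolysis.

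Pieces of promoter are shown because the nuclear members share a function but not a locus, and because NRF1, the ETS factor GABPA and YY1 are known regulators of nuclear respiratory genes. The sequences are from RefSeq promoters (GRCm38.p6, the same build as mm10), which matched 40 of the 45 nuclear members. Capitals mark a match on either strand to the NRF1 core GCGCATGCG, the ETS core CCGGAAG or the YY1 core AAGATGGC. The NRF1 core and its reverse complement overlap in all but 1 base, so a site can match on both strands, and only the first of such a pair is printed. *Ndufaf5*, *Ndufs3* and *Ndufs8* were printed by rule, and the others were chosen after values were seen, to show every NRF1 match and 4 of the 8 YY1 matches. All are written 5′ to 3′ on the transcript strand.
Ndufaf5, NRF1, chr2:140170652-140170680, plus strand: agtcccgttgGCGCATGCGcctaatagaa
Ndufaf4, NRF1, chr4:24897960-24897988, plus strand: ccagatgtctGCGCATGCGcctgtgcgga
Ndufa8, NRF1 on the opposite strand, chr2:36049329-36049357, minus strand: tcgctggagaCGCATGCGCagatggtacc
Ndufa11, NRF1, chr17:56717692-56717720, plus strand: cctgcactgcGCGCATGCGcgcacgcctt
Ndufs3, ETS, chr2:90904732-90904758, minus strand: ccgcgtccgcCCGGAAGaagagtcact
Ndufs8, ETS on the opposite strand, chr19:3912743-3912769, minus strand: taggctccgcCTTCCGGttgaaccgca
Ndufs4, YY1, chr13:114388045-114388069, minus strand: tgcctacaggAAGATGGCggcggtc
Ndufa9, YY1, chr6:126849098-126849125, minus strand: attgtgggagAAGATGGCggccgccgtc
Ndufs7, YY1, chr10:80249463-80249490, plus strand: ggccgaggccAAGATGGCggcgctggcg
Ndufaf8, YY1, chr11:120098934-120098961, plus strand: ggcagggcccAAGATGGCggcgccctcg

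Among nuclear subunits, the YY1 word was the most frequent of the 3 relative to promoters in general. It was in 7 of 33 nuclear subunits with a promoter in the table (21.2%) and in 1 of 7 assembly factors (14.3%), against 3.19% of all 27025 promoters. All 8 matches, in *Ndufa3*, *Ndufa9*, *Ndufaf8*, *Ndufb8*, *Ndufc1*, *Ndufs4*, *Ndufs6* and *Ndufs7*, lay on the transcript strand and began 11 to 39 bases into the transcript. The word contains ATG, and in 7 of the 8, all but *Ndufaf8*, that ATG was the annotated start codon of the protein, so these letters are also coding sequence. The NRF1 core was in 2 of 33 nuclear subunits (6.06%), *Ndufa8* and *Ndufa11*, and in 2 of 7 assembly factors (28.6%), *Ndufaf4* and *Ndufaf5*, against 1.95% of all promoters. The ETS core was in 4 of 33 nuclear subunits (12.1%) and 2 of 7 assembly factors, against 9.93%. The core of the estrogen-related receptors, AAGGTCA, was in 3 of 33 (9.09%) and 0 of 7, against 5.38%. The SP core GGGCGG was in 15 of 33 (45.5%) and 6 of 7, against 38.2%. *Ndufaf8* was the only member with more than 1 of the NRF1, ETS and YY1 words, and its ETS and YY1 matches did not overlap. A match is a description of these letters and not a site shown to be bound.

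Across the enzyme, estimates lay lower in the libraries labelled knockout, with calls in each class. All 52 had a log2 fold change below 0, while 51.9% of the 15984 genes tested did. With edgeR's quasi-likelihood test at an adjusted p of 0.05, 12 of the 52 were called lower (23.1%) and 0 higher. Of all genes tested, 11% were called lower and 12.0% higher, together 23.0%. The median log2 fold change was -0.38 over the 52 genes and -0.02 over all genes. The 12 were *Ndufs1*, *Ndufs3*, *Ndufv2*, *Ndufs4*, *Ndufa12*, *Ndufa9* and *Ndufc2* among nuclear subunits, *Ndufaf5* and *Ndufaf6* among assembly factors, and *mt-Nd1*, *mt-Nd2* and *mt-Nd5* from the mitochondrial genome. At an unadjusted p under 0.05, 38 of the 52 were lower, beside 18.6% of all genes. Differences were modest and the groups overlapped for each gene. No member had every library labelled knockout below every control, a pattern that 0.0876% of all genes showed. In 50 members at least 8 of the 12 libraries labelled knockout lay below the control median, and *Ndufs1*, *Ndufs4*, *Ndufa12* and *Ndufaf6* had 12 of 12. The share of all genes with either pattern was not computed, so how unusual these counts are is not known. The count of calls depended on single libraries. It was 4 without control replicate 6, beside 8.00% of all genes called lower, and 4 without control replicate 8, beside 6.08%. It was 7 without control replicate 4 (7.74% of all genes) or replicate 2 labelled knockout (8.85%). Without control replicates 5 and 1 it was 19 (11.9%) and 22 (11.6%). Leaving out replicates 12, 11 and 5 labelled knockout gave 20 (12.2%), 21 (9.88%) and 31 (12.8%). Without both control replicates 6 and 8, an alternative chosen after seeing the data for their low cartilage and bone markers, edgeR called 2 members lower, *Ndufs1* and *Ndufaf5*, beside 4.15% of all genes, and 51 of 52 stayed below 0. With replicate 5 labelled knockout left out as well, 4 were called, the same 2 with *Ndufc2* and *Ndufaf6*, beside 6.32% of all genes. The Wald test of DESeq2, which the study used, called 21 members lower (12 nuclear subunits, 2 assembly factors and 7 of the mitochondrial genome), beside 10.8% of all genes.

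**Figure D1:**
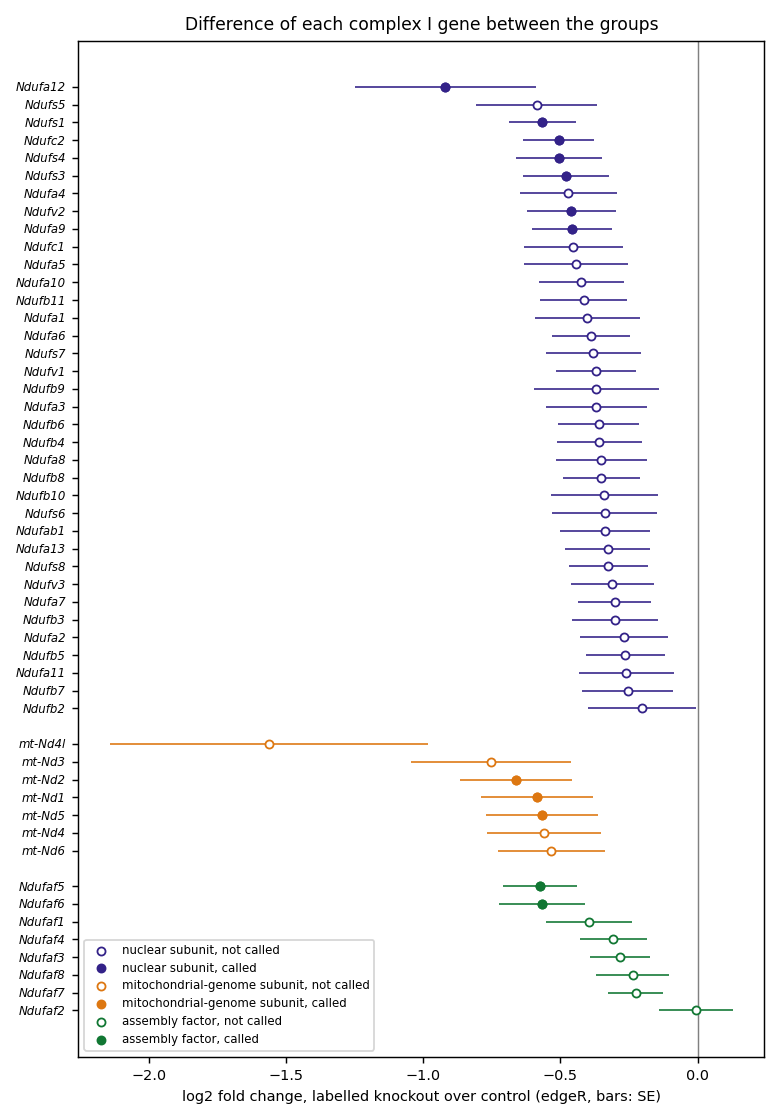
Log2 fold change of 51 of the 52 complex I genes, libraries labelled knockout (n = 12) over control (n = 8), from edgeR. Points are estimates, bars are SE and filled points passed an adjusted p of 0.05. Every point lies at or left of 0, with *mt-Nd4l* at -1.56 and *Ndufaf2* at -0.01 as the ends.

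Before single genes, the summed levels show how the libraries differed. The 37 nuclear subunits summed to 6506 CPM in the lowest control library, 8476 in the median and 12110 in the highest, and to 3883, 6315 and 9529 in the libraries labelled knockout. The 7 subunits of the mitochondrial genome summed to 60540, 74159 and 121852 CPM in control and to 32237, 50322 and 80449 CPM in the libraries labelled knockout. Assembly factors were scarce, at 185, 205 and 271 CPM against 117, 166 and 228 CPM. Each class had libraries of both groups in a shared range, with the medians of the libraries labelled knockout below the lowest control. Mitochondrial-genome subunits alone made up 7.53% ± 1.19 of all counts in control (SD, n = 8) and 5.55% ± 1.28 in the libraries labelled knockout (SD, n = 12), and nuclear subunits 0.815% ± 0.108 and 0.682% ± 0.126. Their summed CPM was 9.25 ± 1.04 times that of the nuclear subunits in control and 8.19 ± 1.55 times in the other group. Of the counts on the mitochondrial genome, they took 42.2% ± 1.19 and 40.9% ± 1.24.

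**Figure D2:**
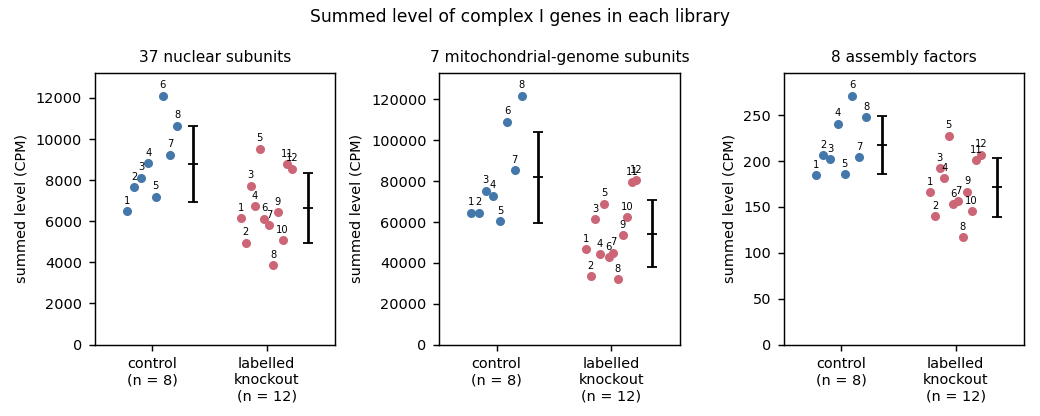
Summed CPM of 37 nuclear subunits, 7 mitochondrial-genome subunits and 8 assembly factors in each library, with replicate numbers beside the points and mean ± SD to the right of each group. Control replicates 6 and 8 are highest in each panel and replicate 8 labelled knockout is lowest.

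The genes moved together from library to library within a group. Control replicate 6 was the highest control library for 35 of the 52 genes and control replicate 8 for 13, while control replicate 1 was lowest for 31. Among the libraries labelled knockout, replicate 8 was lowest for 47 of 52, including 36 of 37 nuclear subunits and 8 of 8 assembly factors. Replicates 5, 11 and 12 labelled knockout were highest for 22, 17 and 13. Genes of the enzyme therefore share libraries as well as function, and their calls are not separate observations.

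**Figure D3:**
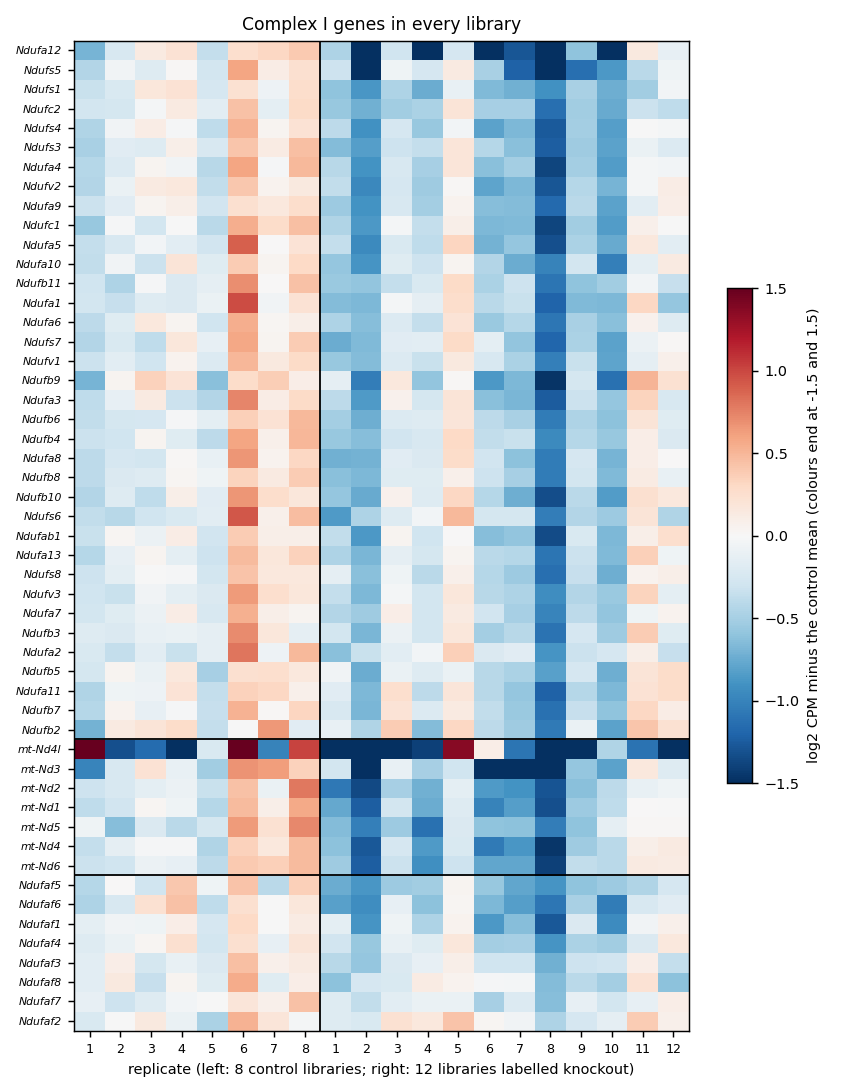
Log2 CPM of 51 complex I genes each minus its mean over the 8 control libraries, for every library, with genes ordered by class and fold change. Columns, not rows, carry most of the pattern. Control replicate 6 is red and replicate 8 labelled knockout blue through nearly the whole enzyme, while *mt-Nd4l* swings beyond the colour scale in both groups.

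In the N module, which takes electrons from NADH, 4 of 10 genes were called lower, beside 11% of all genes. The median log2 fold change was -0.38. Each module holds few genes, and differences between modules were not tested. *Ndufs1* (ENSMUSG00000025968, chr1:63143596-63176833, minus strand, mm10) encodes the large subunit with several iron-sulfur clusters. It had 358 CPM in the lowest control library, 467 in the median and 539 in the highest, against 239, 290 and 436 CPM in the libraries labelled knockout. Of the 12, 10 were under the lowest control. Its log2 fold change of -0.57 ± 0.12 (SE) had an edgeR adjusted p of 0.00361, the smallest among the 52 genes. *Ndufv2* (chr17:66078638-66101559, minus strand), whose protein holds a further cluster beside the flavin subunit, had 314, 455 and 562 CPM in control and 175, 306 and 460 CPM in the other group. The difference was -0.46 ± 0.16 (SE, log2) with an edgeR adjusted p of 0.0442. *Ndufv1* (chr19:4007384-4012806, minus strand), which binds NADH and flavin, had 401, 485 and 708 CPM against 247, 397 and 555 CPM. It was not called, at -0.37 ± 0.15 (SE, log2; edgeR adjusted p = 0.0702).

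Accessory subunits of the N module included *Ndufs4* (chr13:114287795-114388258, minus strand), whose loss in mice and people gives a severe mitochondrial encephalopathy. It had 134, 184 and 263 CPM in control and 76.4, 125 and 182 CPM in the libraries labelled knockout, all 12 of which were under the control median. The log2 difference was -0.50 ± 0.16 (SE; edgeR adjusted p = 0.0250). *Ndufa12* (chr10:94198720-94221443, plus strand), an accessory subunit joined late in assembly, had the widest range and was chosen for its values. It had 90.1, 165 and 193 CPM in control but 23.9, 78.4 and 162 CPM in the libraries labelled knockout, with 6 of 12 below the lowest control. Replicates 2, 4, 6, 8 and 10 labelled knockout lay at 39.7, 35.7, 29.1, 23.9 and 28.2 CPM, whereas replicates 5, 11 and 12 lay at 123, 162 and 135 CPM, inside the control range. The difference of -0.92 ± 0.33 (SE, log2) was the largest among nuclear subunits and passed narrowly (edgeR adjusted p = 0.0485). The other N genes, *Ndufa2*, *Ndufa6*, *Ndufa7*, *Ndufs6* and *Ndufv3*, were not called, at -0.39 to -0.27.

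In the Q module, where ubiquinone is reduced, 2 of 6 genes were called lower, beside 11% of all genes. *Ndufs3* (chr2:90894634-90904827, minus strand), a core subunit around which assembly begins, had 196, 268 and 376 CPM in control and 117, 197 and 312 CPM in the libraries labelled knockout. It was called at -0.48 ± 0.16 (SE, log2; edgeR adjusted p = 0.0314). *Ndufa9* (chr6:126821721-126849136, minus strand), an accessory subunit at the joint of the arms, had 231, 302 and 347 CPM against 129, 201 and 309 CPM. It was also called, at -0.46 ± 0.15 (SE, log2; edgeR adjusted p = 0.0277), and 8 of 12 libraries labelled knockout were under the lowest control.

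*Ndufs7* and *Ndufs8*, also of the core, had differences of similar size that did not pass. *Ndufs7* (chr10:80249121-80256794, plus strand), which holds the last cluster before ubiquinone, had 297, 393 and 605 CPM against 176, 325 and 494 CPM (-0.38 ± 0.17 SE, edgeR adjusted p = 0.115). *Ndufs8* (chr19:3908863-3912774, minus strand), with clusters earlier in the same chain, had 157, 194 and 263 CPM against 88.9, 151 and 207 CPM (-0.33 ± 0.14 SE, edgeR adjusted p = 0.104). *Ndufa5*, an accessory member of the module, was at -0.44 and not called. Of the 7 nuclear core subunits in both matrix modules 3 were called, and of the 30 accessory subunits 4, with a median of -0.36 over the latter. Both counts stand beside 11% of all genes called lower.

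The membrane arm mixes genomes. In its proximal part, 1 of 9 nuclear genes was called (median -0.40), near the 11% of all genes called lower. In its distal part 0 of 10 were called (median -0.35, range -0.42 to -0.20). Of those 10, 4 had an unadjusted p under 0.05 with edgeR, beside 18.6% of all genes. DESeq2 called 1 of the 10, near its share of 10.8% of all genes. The called proximal gene was *Ndufc2* (chr7:97400003-97407802, plus strand), an accessory subunit in the inner membrane. It had 76.0, 86.6 and 125 CPM in control and 42.0, 64.9 and 106 CPM in the libraries labelled knockout. Of those 12, 11 lay under the lowest control, the most of any member, and replicate 5 was the exception. Its log2 difference was -0.51 ± 0.13 (SE; edgeR adjusted p = 0.00928). *Ndufs5*, a small subunit on the outer face of the membrane, was close to the threshold at -0.59 ± 0.22 (SE, log2; edgeR adjusted p = 0.0588) and was chosen for its size. *Ndufa1*, *Ndufa3*, *Ndufa8*, *Ndufa10*, *Ndufa11*, *Ndufa13* and *Ndufc1* were at -0.45 to -0.26. In the distal part, *Ndufb2*, *Ndufb3*, *Ndufb4*, *Ndufb5*, *Ndufb6*, *Ndufb7*, *Ndufb8*, *Ndufb9*, *Ndufb10* and *Ndufb11* lay within the range above, with *Ndufb2* nearest to 0 (-0.20 ± 0.20 SE). *Ndufab1*, the acyl carrier protein present in both arms, was at -0.34. Shared exonic sequence reached 39.0% of *Ndufb6* (with *Smim27*), 19.5% of *Ndufb9* (with *Gm49356* on the same strand) and 375 bases of *Ndufa13* (with *Tssk6*), so their values are uncertain, since the use of strand in counting was not given in the sources used here. *Ndufa4* carries the name, but its protein is now placed in complex IV. It had 385, 503 and 779 CPM in control and 199, 364 and 587 CPM in the other group (-0.47 ± 0.18 SE, edgeR adjusted p = 0.0580).

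Mitochondrial DNA encodes the core of the proton-pumping arm, and all 7 of its subunits had a log2 fold change below 0, with a median of -0.59. Of these, 3 were called, beside 11% of all genes called lower. *mt-Nd2* (chrM:3914-4951, plus strand) had 13666 CPM in the lowest control library, 15877 in the median and 29943 in the highest, against 6753, 10855 and 16524 CPM in the libraries labelled knockout. It was called at -0.66 ± 0.20 (SE, log2; edgeR adjusted p = 0.0241), and 9 of 12 libraries labelled knockout were under the lowest control. *mt-Nd1* (chrM:2751-3707, plus strand), which forms part of the ubiquinone channel, had 18631, 24819 and 37405 CPM against 10127, 16150 and 25313 CPM (-0.59 ± 0.20 SE, edgeR adjusted p = 0.0418). *mt-Nd5* (chrM:11742-13565, plus strand), an antiporter-like subunit at the distal tip, had 8706, 12288 and 22343 CPM against 6217, 8892 and 13704 CPM (-0.57 ± 0.20 SE, edgeR adjusted p = 0.0496). These are neighbours in value and in rank of p, and the lines between called and not called are thin. *mt-Nd4*, the other distal antiporter-like subunit (chrM:10167-11544), had 13160, 17774 and 25048 CPM against 6538, 12155 and 19782 CPM (-0.56 ± 0.21 SE, edgeR adjusted p = 0.0560). *mt-Nd6* (chrM:13552-14070), the only one of the 7 on the minus strand, had 3720, 4549 and 6831 CPM against 1849, 3535 and 5392 CPM (-0.53 ± 0.20 SE, edgeR adjusted p = 0.0531).

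The short genes *mt-Nd3* and *mt-Nd4l* stood apart in level and spread. *mt-Nd3* (chrM:9459-9806) had 40.9, 84.9 and 129 CPM in control and 16.2, 56.0 and 91.1 CPM in the other group (-0.75 ± 0.29 SE, edgeR adjusted p = 0.0656). *mt-Nd4l* (chrM:9877-10173) had 26.8, 60.1 and 584 CPM in control and 18.2, 32.4 and 229 CPM in the libraries labelled knockout. Control replicates 6, 1 and 8 had 584, 290 and 179 CPM while the other control libraries had 26.8 to 75.8 CPM, and replicate 5 labelled knockout had 229 CPM. The log2 difference of -1.56 ± 0.58 (SE; edgeR adjusted p = 0.0554) thus rests on few libraries, and it ran from -2.07 to -0.87 when each was left out. *mt-Nd4l* shares 7 bases with *mt-Nd4*, and *mt-Nd5* shares 14 with *mt-Nd6* on the opposite strand. How reads with several positions were treated was not given in the sources used here.

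Levels of different genes were compared per length, as control CPM per kilobase of transcript. The mitochondrial genes were in the order *mt-Nd1* (27085), *mt-Nd2* (17285), *mt-Nd4* (13371), *mt-Nd6* (9693), *mt-Nd5* (7802), *mt-Nd4l* (537) and *mt-Nd3* (250). Nuclear subunits reached 1002 in *Ndufa4*, whose protein is placed in complex IV as given above, 477 in *Ndufs7* and 453 in *Ndufb10*. The lowest was *Ndufb2* at 8.15. That level is uncertain, since its transcript length was taken as 2413 of 5628 exonic bases. *Ndufb2* also shares 145 bases with *Gm42420* on the same strand. Assembly factors had 11.5 to 29.9. The core nuclear subunits did not have a common level, with *Ndufs1* at 173 and *Ndufv1* at 308 CPM per kilobase.

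Assembly factors help build the enzyme, and 2 of 8 were called lower, beside 11% of all genes, with a median log2 fold change of -0.30. *Ndufaf5* (chr2:140170649-140203689, plus strand) modifies an arginine of the NDUFS7 protein. It had 20.9, 27.4 and 37.5 CPM in control and 15.2, 19.0 and 28.8 CPM in the libraries labelled knockout, of which 10 of 12 were under the lowest control. Its log2 difference was -0.58 ± 0.13 (SE; edgeR adjusted p = 0.00568). *Ndufaf6* (chr4:11051045-11076205, minus strand), which acts early in building the proximal membrane part, had 12.9, 18.9 and 24.1 CPM against 8.41, 11.4 and 18.1 CPM, with 12 of 12 under the control median. It was called at -0.57 ± 0.16 (SE, log2; edgeR adjusted p = 0.0141). *Ndufaf3* (chr9:108565537-108567434, minus strand), a partner of *Ndufaf4* on the early Q module, had 18.1, 21.5 and 29.6 CPM against 13.2, 17.6 and 23.2 CPM (-0.28 ± 0.11 SE, edgeR adjusted p = 0.0650). *Ndufaf1*, *Ndufaf4*, *Ndufaf7* and *Ndufaf8* were at -0.40, -0.31, -0.23 and -0.24 and not called. *Ndufaf2*, chosen for its value, was level at -0.01 ± 0.14 (SE, log2; edgeR adjusted p = 0.980), with 5.52, 7.56 and 10.99 CPM against 5.56, 7.63 and 10.3 CPM. On the opposite strand, 65.6% of its exonic length is also covered by *B230220B15Rik*, so its counts are uncertain, and its sign changed with library totals as scaling (0.13).

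Genes around the enzyme showed how far the pattern went. These lists were written with earlier results known, and none held a gene called higher. Their counts stand beside 11% of all genes tested that edgeR called lower. Of 12 assembly factors outside the name pattern, 7 were called lower (median -0.36), with *Timmdc1*, *Tmem186*, *Tmem70*, *Acad9* and *Dmac2* at the smallest p and log2 fold changes of -0.38, -0.35, -0.46, -0.42 and -0.39. Complex II, which feeds ubiquinone from succinate and has no mitochondrial-genome subunit, had 6 of 8 called lower (median -0.41), among them its flavin subunit *Sdha* at -0.57 ± 0.13 (SE; edgeR adjusted p = 0.00525). Other routes of electrons to ubiquinone had 6 of 10 called lower (median -0.48), among them *Etfdh*, which serves fatty acid oxidation, at -0.53, *Sqor*, which oxidises sulfide, at -0.47, and *Gpd2*, of the glycerol phosphate shuttle, at -0.73.

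Supply of cofactors was less often past the threshold in number, and the difference between lists was not tested. The share of all genes called lower was again 11%. In the iron-sulfur cluster and flavin list, 4 of 15 were called lower (median -0.28), namely *Nfs1*, which supplies the sulfur, *Rfk*, which makes flavin mononucleotide, *Isca1* and *Isca2*, at -0.48, -0.44, -0.47 and -0.28. Among genes that keep and express the mitochondrial genome, 10 of 21 were called lower (median -0.29). *Tfb2m* and *Tfam*, which start its transcription, were at -0.49 and -0.43, and *Lrpprc*, which stabilises its messenger RNA, was at -0.50. Of nuclear regulators of mitochondrial biogenesis, 3 of 14 were called lower (median -0.21), which were *Esrrb* at -0.92 ± 0.20, *Ppargc1a*, a coactivator of oxidative genes, at -0.66 ± 0.22, and *Ppargc1b* at -0.42 ± 0.15 (SE). The messenger RNAs of the factors whose words were searched above were not called, with *Nrf1* at 0.08 ± 0.07, *Gabpa* at -0.05 ± 0.09 and *Yy1* at 0.05 ± 0.07 (SE, log2). The relatives *Ndufb1-ps*, *Ndufab1-ps* and *Ndufa4l2* gave 0 of 3 called with edgeR, with 1 lower at an unadjusted p under 0.05, beside 18.6% of all genes. DESeq2 called 0 of them lower, beside 10.8% of all genes.

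Markers of other cell types moved with the groups, those of muscle among them. By an exact two-sided permutation test of mean log2 CPM with adjustment over 9 lists, skeletal muscle was lower by 0.60 in the libraries labelled knockout (adjusted p = 0.0370). Its edgeR calls were 6 of 17 lower, beside 11% of all genes, and 0 higher. The 6 were *Pvalb*, *Atp2a1*, *Ckm*, *Myl1*, *Actn3* and *Mylpf*. Not called were *Mb*, *Myh2*, *Tnnt1* and *Myh7*, at -0.26, -0.24, -0.19 and 0.58, nor were *Tnnt3*, *Tnni2*, *Cox6a2*, *Myh1*, *Myh4*, *Acta1* and *Tnnc2*. Muscle fibre types were not separated in this list. Estimates were below 0 for 16 of 17, and no marker was at 0 in all libraries. Control replicate 8, the highest for mitochondrial-genome subunits, was also the highest of all for this list (11.2), and replicate 5 labelled knockout, the highest of its group for nuclear subunits, was the highest there (10.3). The match was not close in every library. Control replicate 6, the highest control for most complex I genes, had 10.2, below control replicates 4 and 8, and replicate 8 labelled knockout, the lowest for 47 of 52 genes, had 9.48, above replicates 1, 2 and 10 of its group at 8.94, 8.73 and 9.20. The osteoclast list moved the other way, higher by 2.58 (exact permutation adjusted p = 0.000679) with 10 of 10 genes called higher and summed levels of 119 to 1419 CPM in control and 609 to 8074 CPM in the other group. Macrophage markers (1.33 higher, exact permutation adjusted p = 0.000679; 5 of 6 genes called) and osteoblast and osteocyte markers (1.62 higher, exact permutation adjusted p = 0.0142; 7 of 11 called) also rose. The share of all genes that edgeR called higher was 12.0%. Lists for neutrophils (1.90, adjusted p = 0.0762), erythroid cells (-0.97, 0.0850), chondrocytes (0.81, 0.306), endothelial cells (-0.16, 0.306) and adipocytes (-0.08, 0.898) did not pass the same exact permutation test. Replicate 5 labelled knockout had the lowest osteoclast value of its group (3.80) and was the library whose removal raised the complex I calls most, and as given above it also had the lowest chondrocyte and osteoblast values there. Replicate 8 labelled knockout had an osteoclast value of 5.84, which replicates 1, 2, 6, 9 and 10 exceeded. Its chondrocyte value of 6.98 was the highest of all libraries, and its osteoblast and osteocyte value lay above every control. Control replicates 6 and 8 were the lowest controls for both of these lists, as given above. Replicate 11 labelled knockout went the other way, next highest for chondrocytes yet highest of its group for 17 of the 52 genes. Whether complex I levels follow the chondrocyte or osteoblast lists was not tested.

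**Figure D4:**
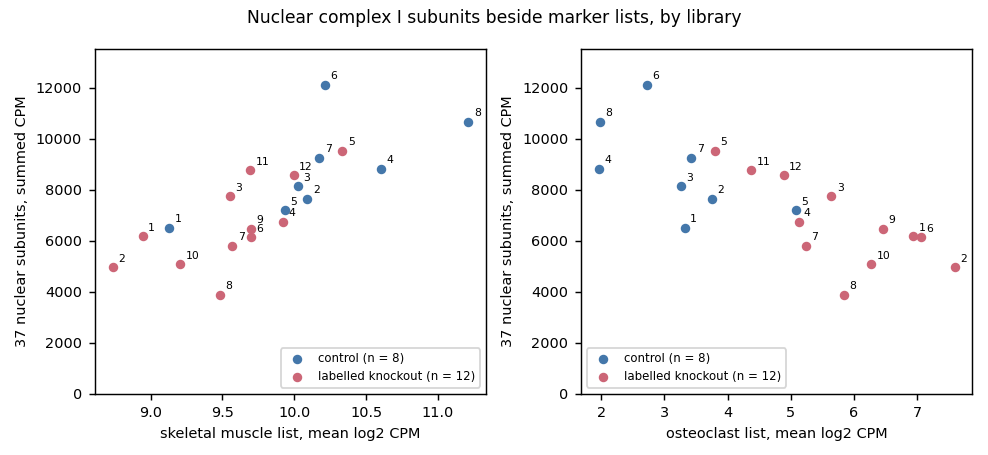
Summed CPM of the 37 nuclear subunits against the mean log2 CPM of the skeletal muscle list and of the osteoclast list, 1 point per library with its replicate number. Replicate 8 labelled knockout has the lowest sum at a middle value of both lists (9.48 and 5.84). Along the osteoclast axis the groups overlap between 3.80 and 5.08, running from 1.96 to 5.08 in control and 3.80 to 7.59 in the other group.

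With the muscle list as a covariate in the edgeR fit, 50 of 52 complex I genes stayed below 0, but 0 were called, beside 1.61% of all genes lower. Class medians shrank to -0.12 for nuclear subunits, -0.13 for assembly factors and -0.30 for mitochondrial-genome subunits. *Ndufs1* was at -0.35 ± 0.11 (SE; edgeR adjusted p = 0.0641), *Ndufaf5* at -0.30 ± 0.11 (edgeR adjusted p = 0.117) and *mt-Nd2* at -0.30 ± 0.17 (edgeR adjusted p = 0.287). At an unadjusted p under 0.05, 4 were lower, namely *Ndufs1*, *Ndufc2*, *Ndufaf5* and *mt-Nd4l*. The share of all genes at that threshold was not computed for this fit or the osteoclast fit below, so how unusual such counts are is not known. With the osteoclast list as a covariate, 7 of 52 genes were below 0, 0 had an unadjusted p under 0.05 and lay lower, and class medians were 0.15, 0.05 and 0.06. In that fit 0 of all genes were called in either direction, and the groups held 59.7% of the variance of the list and 27.5% of that of the muscle list. The SE of *Ndufs1* rose from 0.12 to 0.15 with the osteoclast list, and that of *Ndufs3* from 0.16 to 0.19, while their log2 estimates moved to -0.16 and 0.06. A covariate that differs between groups takes some of any group difference with it. The part of cell makeup in the complex I differences was not tested beyond these fits.

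**Figure D5:**
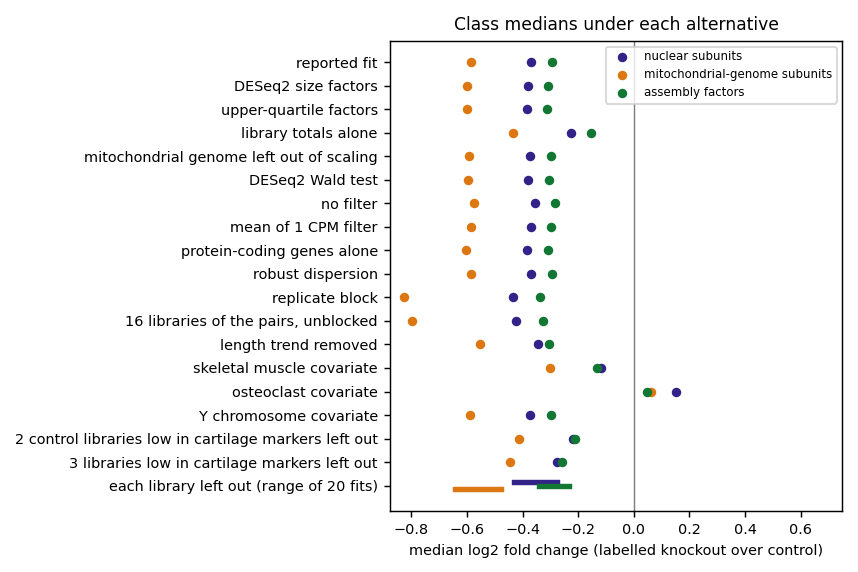
Median log2 fold change of the nuclear subunits, mitochondrial-genome subunits and assembly factors under the reported fit and each alternative, with the 2 that left out libraries low in cartilage markers chosen after seeing the data, and the range over 20 fits that each left out a library as bars. All medians lie below 0 except with the osteoclast list as covariate, at 0.15, 0.06 and 0.05.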

How the data were processed

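The authors trimmed paired-end reads, mapped them to the mouse build mm10 and used featureCounts for read counting by gene, and the deposited table holds these raw counts for 8 control and 12 libraries labelled knockout. The aligner was not given in the sources used here. Groups came from sample titles. Of 54532 identifiers, 54495 matched GENCODE M21, which gave symbols and coordinates. Counts were fitted with edgeR 4.0.16 in R 4.3.3 (filterByExpr, TMM, quasi-likelihood F-test on group, two-sided, Benjamini-Hochberg at 0.05 over 15984 genes). DESeq2 1.42.0 was an alternative. CPM used TMM library sizes, log2 CPM a prior count of 2, and SE came from the F statistic. Marker lists were compared by exact permutation over 125970 assignments. Counts were simulated for this comparison over 15984 genes, and edgeR called 163 of the 200 given a log2 difference of 1.5, together with 10 others. The p-values of edgeR and DESeq2 set a group difference against the spread between these libraries. Permutation p-values set a group difference against all assignments of the libraries to groups. The members, lists and tests were chosen with earlier results of these data known. Full values were given for the core subunits (1 gene is not reported here), the 3 accessory subunits and 3 assembly factors with the smallest p, *Ndufa4*, and up to 5 called genes of each pathway list. Other genes were chosen after values were seen. Alternatives covered scaling, filters, tool, replicate block, gene length, covariates and each library left out, and 2 alternatives that left out libraries low in cartilage markers were added after seeing the data. Promoter words were searched on both strands.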

Additional observations from a re-analysis of the deposited data

Results flagged for a closer look

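In the 8 control libraries, 4 genes had a highest value that lay far from the rest by Dixon's ratio, and in each it was control replicate 6. *Ndufa1* had 174 CPM there and 104 CPM in the next library. *Ndufa5* had 411 CPM and next 254 CPM. *Ndufa7* had 164 CPM and next 121 CPM. *Ndufb3* had 212 CPM and next 146 CPM. In all, 55 such sets of control values were examined, and chance alone flags about 1 in 20. None of these genes was called, and the same library was the highest control for 35 of the 52 complex I genes.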

How the results depend on the processing

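All class medians stayed below 0 under every alternative except the osteoclast covariate, and no complex I gene was called higher in any. Calls lower were reported as 7 nuclear subunits, 2 assembly factors and 3 mitochondrial-genome subunits. Shares of all genes called lower are in brackets. There were 12 nuclear and 7 mitochondrial calls with DESeq2 (10.8%), and 3 and 0 with no filter (3.87%). With protein-coding genes alone there were 11 and 6 (12.8%). There were 5 mitochondrial calls with a filter at 1 CPM (12.6%) and 12 nuclear calls with the length trend removed (11.7%). With the muscle list as covariate there were 0, 0 and 0 calls (1.61%), and *Ndufb2* and *Ndufaf2* turned to 0.013 and 0.13. With the osteoclast list as covariate there were 0, 0 and 0 calls (0%) and the medians were 0.15, 0.049 and 0.061. In that fit *mt-Nd1*, *mt-Nd2*, *mt-Nd3*, *mt-Nd4* and *mt-Nd6* were at 0.10, 0.061, 0.063, 0.10 and 0.032, *Ndufs3*, *Ndufs7* and *Ndufs8* at 0.061, 0.14 and 0.06, *Ndufv1* and *Ndufv2* at 0.065 and 0.086, *Ndufs4*, *Ndufa9*, *Ndufa4* and *Ndufb2* at 0.019, 0.05, 0.15 and 0.20, and *Ndufaf6*, *Ndufaf3* and *Ndufaf2* at 0.023, 0.040 and 0.40. *Ndufaf2* was also at 0.13 with library totals as scaling, which moved the median of all genes from -0.02 to 0.12, and at 0.0081 with no filter. The mean log2 CPM of 4 Y chromosome genes was 4.25 to 5.21 in control replicates 3, 7 and 8 and replicates 3, 4, 5, 7, 8 and 9 labelled knockout. In the other libraries it was -3.24 to -2.55. With this mean as covariate 10 members were called lower (11.4%) and 52 of 52 stayed below 0. Leaving out each library gave 2 to 20 nuclear, 2 to 5 assembly and 0 to 6 mitochondrial calls, medians of -0.43 to -0.28, -0.34 to -0.23 and -0.64 to -0.48, and -0.064 to 0.089 for *Ndufaf2*. Without control replicate 6 (8.00%) or control replicate 8 (6.08%) there were 2 nuclear and 0 mitochondrial calls. Without replicate 5 labelled knockout there were 20 and 6 (12.8%). *Ndufs1*, *Ndufc2*, *Ndufaf5* and *Ndufaf6* were called in all 20 of these fits. Replicate numbers 1 to 8 occur in both groups. Deviations of same-numbered libraries had correlations of -0.36 to 0.17, and none matched its own number best. Such correlations cannot show whether these libraries shared a litter or day. The replicate block on these 16 libraries left 2 nuclear, 2 assembly and 0 mitochondrial calls (4.41%) with medians of -0.44, -0.34 and -0.83. The same 16 libraries without the block gave 7, 3 and 6 calls (9.54%). Without both control replicates 6 and 8, chosen after seeing the data, there were 1, 1 and 0 calls (4.15%) and *Ndufaf2* was at 0.077. Without replicate 5 labelled knockout as well there were 2, 2 and 0 calls (6.32%) and *Ndufaf2* was at 0.032. Except where a covariate or fewer libraries or genes defined the fit, the cause was not tested. Each member had at least 76 counts in every library. Replicate 8 labelled knockout, lowest for most members, had 11570231 counts in total, and replicate 10 labelled knockout had the lowest total, 11153820. A part of depth in the differences was not tested.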
